A study of Mus musculus with 28 samples.

Results

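Ccr2, the receptor that draws inflammatory monocytes out of the bone marrow, was measured together with 4 CC chemokines, Ccl2, Ccl6, Ccl7 and Ccl8, in porous polymer implants of tumor-bearing and healthy mice. The 5 genes were chosen by symbol and are 5 of the 584 genes on the panel. They are covered by 6 of its 648 assays, since Ccl7 has 2. Mice were female BALB/c animals that all carried a microporous polycaprolactone (PCL) scaffold, which fills with immune, stromal and epithelial cells. Tumor-bearing mice were inoculated with 4T1-luc2-tdTomato cells, a labelled mouse mammary carcinoma line, and the healthy mice were time-matched and tumor-free. Scaffolds were collected at day 7 (3 tumor-bearing and 3 healthy mice), day 14 (8 and 8) and day 21 (3 and 3) after inoculation, with 1 sample per mouse and 28 in all. The cell line is also entered for healthy mice in the labels, so groups follow the condition label. The age of the mice is not given there.

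CC chemokines are small secreted proteins that bind receptors on leukocytes and guide them along a gradient. Ccl2 and Ccl7 are the main ligands of Ccr2, and together they bring classical monocytes into inflamed tissue and tumors, where the cells can become macrophages. Ccl8 is a relative of Ccl2 that in the mouse also acts through Ccr8, and Ccl6 is a rodent chemokine made by macrophages and neutrophils that acts through Ccr1. In the RefSeq annotation of GRCm38.p6 the chemokine genes lie on chromosome 11, with Ccl2 and Ccl7 next to each other, Ccl8 a few genes on after Ccl11 and Ccl12, and Ccl6 further along beside Ccl9. Ccr2 lies on chromosome 9. In RNA from a whole implant, fewer cells of a type and less RNA per cell cannot be told apart.

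The RefSeq promoter table (GRCm38.p6) held Ccr2, Ccl6 and Ccl8 among the members, and not Ccl2 or Ccl7. The windows of Ccl6 and Ccl8 are printed because these genes moved together from mouse to mouse on part of the panels. Each runs over 300 bases around the annotated gene start, on the minus strand at chr11:83593038-83593337 for Ccl6 and on the plus strand at chr11:82114935-82115234 for Ccl8. Capitals mark matches to TATAAA (the TATA box) or to GAGGAA (a PU.1 core, a factor of myeloid cells; read as TTCCTC on the other strand).
Ccl6: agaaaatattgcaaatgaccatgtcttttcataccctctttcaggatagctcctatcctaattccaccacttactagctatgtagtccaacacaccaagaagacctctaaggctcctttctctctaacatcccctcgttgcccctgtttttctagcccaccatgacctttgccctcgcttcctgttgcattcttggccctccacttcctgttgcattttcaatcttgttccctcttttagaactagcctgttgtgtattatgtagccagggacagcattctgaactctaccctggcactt
Ccl8: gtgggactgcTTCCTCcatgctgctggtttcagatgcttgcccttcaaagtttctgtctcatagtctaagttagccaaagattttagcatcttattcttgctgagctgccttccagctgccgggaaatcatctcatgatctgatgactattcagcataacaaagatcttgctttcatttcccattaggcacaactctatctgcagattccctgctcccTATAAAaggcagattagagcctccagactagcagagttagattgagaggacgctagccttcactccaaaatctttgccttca
The Ccl8 window held TATAAA 32 bases before the start, which 13.62% of 32851 promoter windows also hold. It held the PU.1 core on the other strand, at -240, and 28.28% of windows hold that motif. Neither window held TGANTCA (AP-1, in 7.81% of windows), TTCNNNGAA (STAT, 8.3%), TTC and GAA with 4 bases between them (STAT6, 6.95%) or GGG and CC with 5 bases between them (NF-kappaB, 50.79%) on either strand, and the Ccl6 window held none of the 6 motifs.

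Values are log2 of the authors' relative quantity, that is the reference genes' mean quantification cycle (Cq) minus the assay's own, so that 0 is the level of the reference genes and 1 more is 2-fold more transcript. A reaction without a Cq was left missing. The number of assays with a Cq ran from 475 to 587 per sample. It was under 550 in 3 day 14 samples, namely tumor-bearing replicate 21 and healthy replicates 13 and 14. The samples ran on 7 physical panels, lettered A to G. Of these, D and G each held 4 day 14 samples of a single condition, healthy on D and tumor-bearing on G, and the others held both conditions. A value was present in 26 to 28 samples for each member assay, and the raw Cq of the members lay between 15.295 and 23.658.

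No member assay differed between tumor-bearing and healthy mice at an adjusted p under 0.05 in limma, at any day or as the mean of the 3 days. Of all assays tested, 0 of 565 (0%) passed at day 7, 14 of 588 (2.38%) at day 14, 7 of 573 (1.22%) at day 21 and 14 of 559 (2.5%) for the mean. At an unadjusted p under 0.05 the members gave 1 of 6 assays at day 21, namely Ccr2, where 9.08% of all assays passed. They gave 0 of 6 at day 7, at day 14 and for the mean, where 2.12%, 10.5% and 8.77% of all assays passed. The exact permutation test within each day gave no member a p under 0.05, and with 3 mice against 3 it cannot go below 0.1. The median difference over the 6 member assays was 0.05 at day 7, 0.30 at day 14, 0.15 at day 21 and 0.23 for the mean, against 0.03, -0.08, 0.00 and -0.05 over all assays. Tests of whether the tumor-bearing minus healthy difference itself changed between days passed for no member either (smallest adjusted p = 0.883), and for 0% of all assays.

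**Figure D1:**
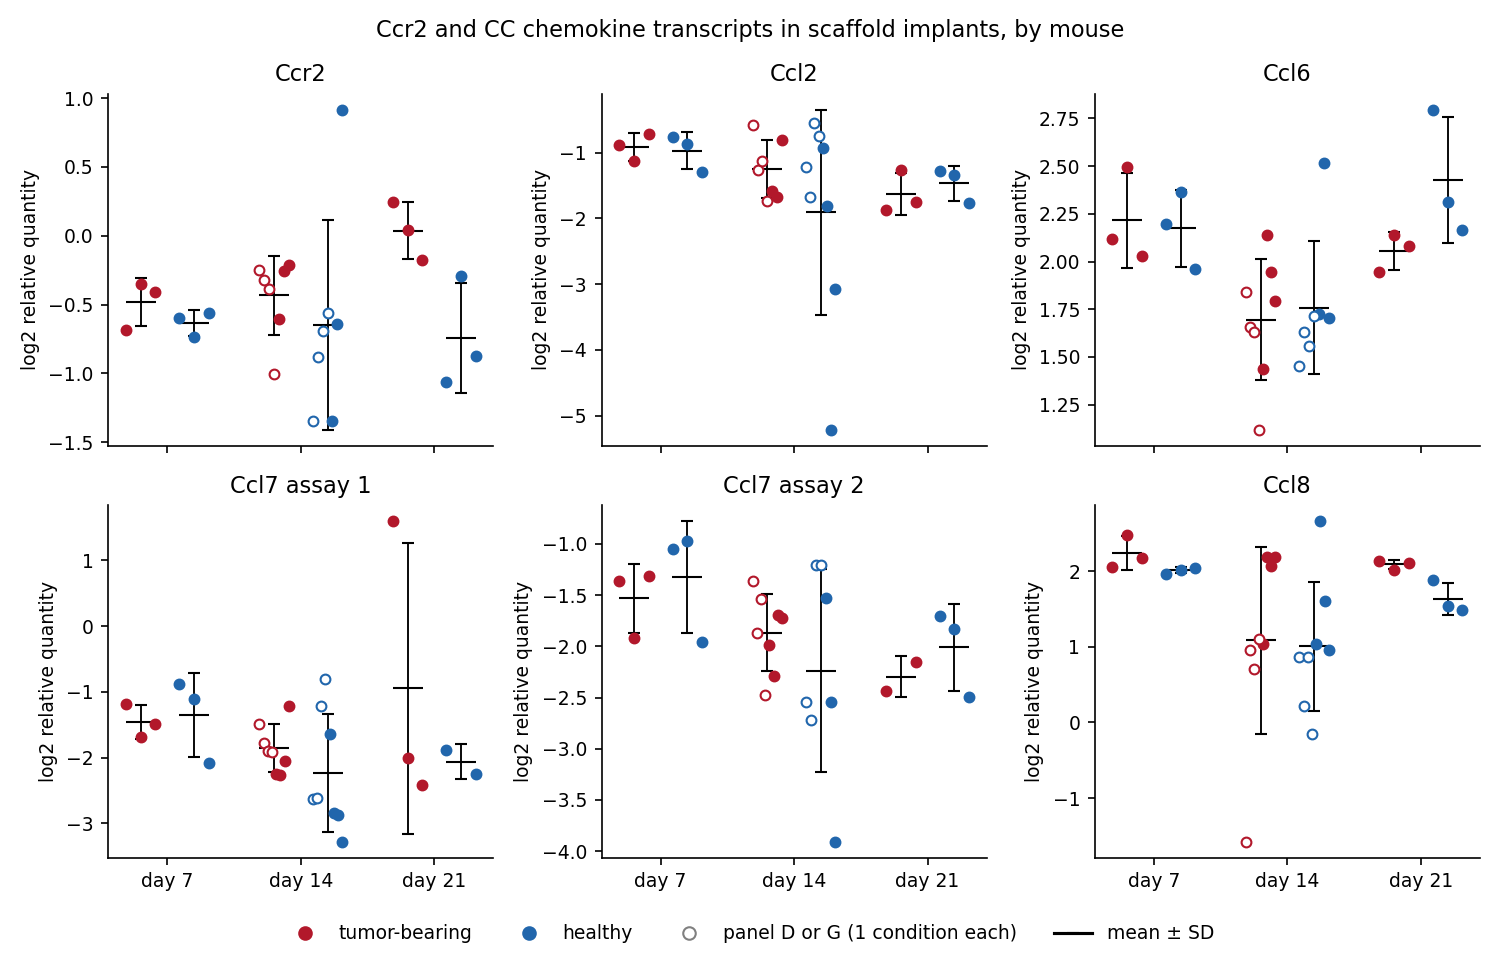
Log2 relative quantity (y axis) of the 6 member assays in each mouse at days 7, 14 and 21 (x axis), tumor-bearing left of healthy, with open points for panels D and G and black bars for mean ± SD. At day 21 the 3 tumor-bearing mice sit above the 3 healthy mice for Ccr2 and Ccl8 and below them for Ccl6, while all members overlap at day 14.

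Ccr2 was the member with the smallest p in the comparison of tumor-bearing with healthy mice, with higher values in tumor-bearing mice at day 21 that did not pass adjustment. At day 21 it was 0.25, 0.04 and -0.17 in tumor-bearing mice, against -1.06, -0.29 and -0.87 in healthy mice. The groups did not overlap, so all 3 tumor-bearing mice were also above the healthy mouse of the same panel. The limma difference was 0.78 ± 0.37 (SE; 95% interval 0.02 to 1.54), a 1.72-fold higher level, with an unadjusted p of 0.044 and an adjusted p of 0.533. At day 7 Ccr2 was -0.68, -0.35 and -0.41 in tumor-bearing mice and -0.60, -0.74 and -0.56 in healthy mice. The values overlapped, with 2 tumor-bearing mice above all healthy ones (difference 0.15 ± 0.37, adjusted p = 0.997). At day 14 it ran from -1.01 through a median of -0.32 to -0.21 in 7 tumor-bearing mice, and from -1.35 through -0.70 to 0.92 in 7 healthy mice. The difference was 0.20 ± 0.25 (adjusted p = 0.803).

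A single healthy library set much of the Ccr2 spread. Healthy day 14 replicate 14, which had few detected assays, stood at 0.92, and the next healthy mouse was at -0.56. For the mean of the 3 days Ccr2 was 0.38 ± 0.19 higher in tumor-bearing mice (adjusted p = 0.577), and 0.47 ± 0.13 without that replicate (adjusted p = 0.0485), which is past the threshold. Without all 3 samples of few detected assays, an alternative chosen after seeing the data, the mean was 0.47 ± 0.13 (adjusted p = 0.0539), day 14 was 0.48 ± 0.16 (adjusted p = 0.210) and day 21 was 0.78 ± 0.24 (adjusted p = 0.161). Of these samples, healthy replicate 13 and tumor-bearing replicate 21 had no Ccr2 value. For Ccr2 this setting thus again left out only replicate 14 and is not a separate check. Without panels D and G the day 14 difference was 0.00 (adjusted p = 0.999), and there replicate 14 is 1 of 3 healthy values. By group mean, Ccr2 was highest in tumor-bearing mice at day 21 (0.04 ± 0.21, SD, n = 3), and then -0.43 ± 0.29 (n = 7) in tumor-bearing mice at day 14, -0.48 ± 0.18 (n = 3) in tumor-bearing mice at day 7, -0.63 ± 0.09 (n = 3), -0.65 ± 0.76 (n = 7) and -0.74 ± 0.40 (n = 3) in healthy mice at days 7, 14 and 21. The first lay above the second by more than the SD of either. Tumor-bearing mice at days 14 and 7, and neighbouring healthy groups, lay closer together than their SDs, while tumor-bearing and healthy mice at day 7 were further apart than the healthy SD and closer than the tumor-bearing SD. The difference of 0.44 ± 0.32 between day 21 and day 14 in tumor-bearing mice missed the threshold (adjusted p = 0.640).

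Ccl8 lay above the healthy mice in every tumor-bearing mouse at days 7 and 21, by small amounts. At day 7 the tumor-bearing values were 2.06, 2.49 and 2.18, and the healthy values 1.97, 2.02 and 2.05. The lowest tumor-bearing mouse exceeded the highest healthy mouse by less than the spread within the tumor-bearing group. The difference was 0.23 ± 0.64 (adjusted p = 0.997). At day 21 Ccl8 was 2.14, 2.02 and 2.12 in tumor-bearing mice and 1.88, 1.54 and 1.48 in healthy mice, a difference of 0.46 ± 0.64 (1.37-fold, adjusted p = 0.987). Here too the groups did not overlap, but their nearest values, 2.02 and 1.88, were closer together than the healthy SD. The SE comes mainly from day 14, where the SD was 1.23 in tumor-bearing and 0.86 in healthy mice, against 0.07 and 0.22 at day 21. With only the day 21 mice in the fit the SE was 0.16 (adjusted p = 0.410). At day 14 Ccl8 ran from -1.58 through 1.07 to 2.20 in tumor-bearing mice and from -0.15 through 0.91 to 2.67 in healthy mice, which overlapped (0.10 ± 0.41, adjusted p = 0.962). On the same panel and day the tumor-bearing mouse was above the healthy mouse in 9 of 10 pairs, with a median difference of 0.36. The 3 pairs of day 7 and the 3 of day 21 only repeat that these groups did not overlap. At day 14 it was 3 of 4 pairs, with differences from -0.48 to 1.24. Over all days the count was 7 of 9 for Ccr2, 6 of 9 for Ccl7 assay 1 and 5 of 9 for Ccl2. It was 4 of 8 for Ccl7 assay 2 and 3 of 9 for Ccl6. The share over all assays was not computed.

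Ccl6 lay lower in every tumor-bearing mouse than in the healthy mice at day 21. The values were 1.95, 2.14 and 2.08 in tumor-bearing mice and 2.80, 2.31 and 2.17 in healthy mice. They did not overlap, though the nearest values of the groups were 0.03 apart. The difference was -0.37 ± 0.24 (adjusted p = 0.729). At day 7 it was 2.12, 2.50 and 2.03 in tumor-bearing mice against 2.20, 2.36 and 1.96 in healthy mice (0.04 ± 0.24, adjusted p = 0.997). At day 14 it ran from 1.12 through 1.73 to 2.14 in 8 tumor-bearing mice and from 1.45 through 1.71 to 2.51 in 7 healthy mice (-0.07 ± 0.16, adjusted p = 0.912). Both earlier days overlapped. Ccl6 had the tightest values of the members, with an SD within groups of 0.30, against a median of 0.45 over 561 assays.

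Over the whole panel, groups that do not overlap were common at this group size. At day 21, 3 of the 4 member assays with a value in all 6 mice did not overlap, and 16.3% of 498 such assays did not (9.24% with tumor-bearing higher and 7.03% with tumor-bearing lower). At day 7, 1 of 6 member assays did not overlap, against 7.88% of 520 assays (4.62% with tumor-bearing higher). At day 14 none did, and the share over 355 assays was 0%.

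**Figure D2:**
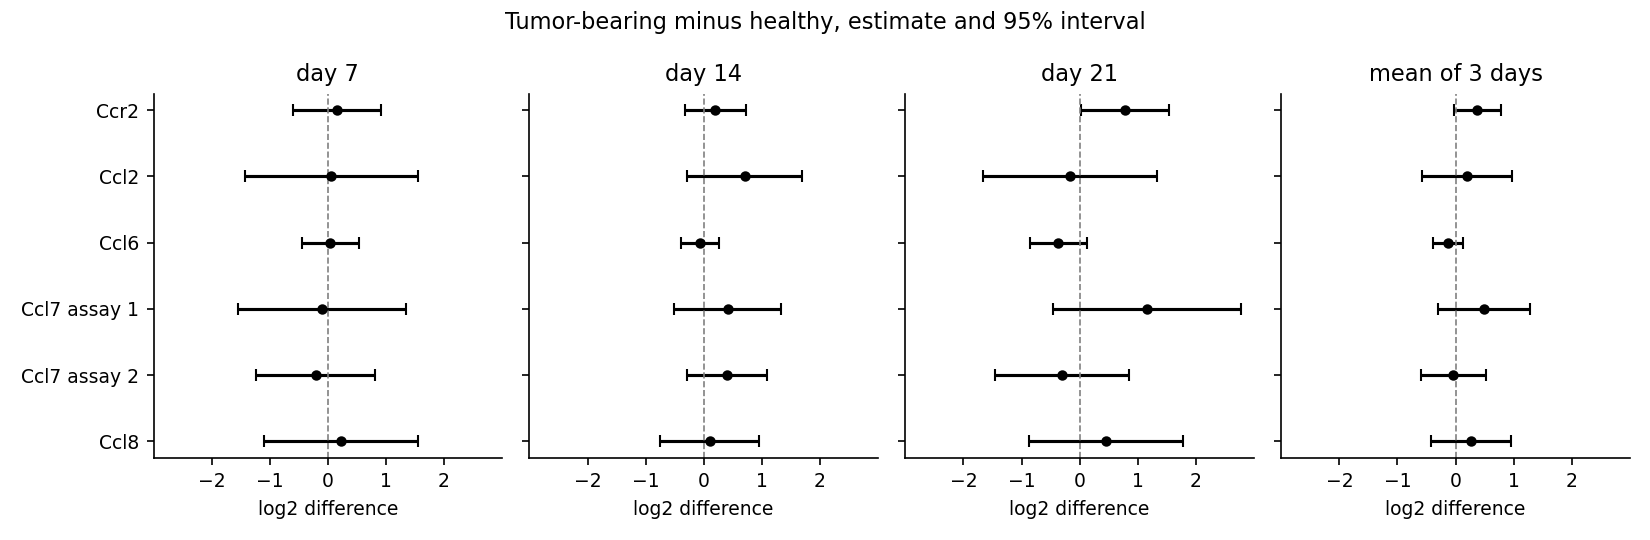
Limma estimate of the log2 difference (x axis), tumor-bearing minus healthy, for each member assay (rows) at days 7, 14 and 21 and as the mean of the 3 days, with 95% intervals as bars and a dashed line at 0. The Ccr2 interval at day 21, 0.02 to 1.54, is the only one that does not reach 0 before adjustment.

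Ccl2, the best known ligand of Ccr2, had similar levels in both conditions apart from a pair of healthy mice. At day 7 it was -0.89, -1.13 and -0.72 in tumor-bearing mice and -0.76, -0.86 and -1.29 in healthy mice (0.06 ± 0.72, adjusted p = 0.997). At day 21 it was -1.87, -1.27 and -1.76 in tumor-bearing mice and -1.28, -1.35 and -1.77 in healthy mice (-0.17 ± 0.72, adjusted p = 0.995). These groups overlapped at both days. At day 14 it ran from -1.74 through -1.26 to -0.59 in 7 tumor-bearing mice and from -5.22 through -1.44 to -0.55 in 8 healthy mice, a difference of 0.70 ± 0.48 (adjusted p = 0.6495). Healthy replicates 13 (-5.22) and 14 (-3.08), both with few detected assays, lay far below the others. Tumor-bearing replicate 21, also with few detected assays and on panel E like healthy replicate 13, had no Ccl2 value. Without the 3 samples of few detected assays the day 14 difference was -0.10 ± 0.22 (adjusted p = 0.934).

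Ccl7, the other main Ccr2 ligand, was read by 2 assays with amplicons of 122 bases (assay 1) and 78 bases (assay 2). The assays differed by -0.42 to 0.63 in 24 of the 25 samples with both. In tumor-bearing day 21 replicate 26 assay 1 gave 1.60 and assay 2 gave -2.44, 4.03 apart. At day 21 assay 1 was 1.60, -2.01 and -2.42 in tumor-bearing mice and -1.88 and -2.25 in 2 healthy mice. The same day by assay 2 gave -2.44 and -2.16 in 2 tumor-bearing mice and -1.70, -1.83 and -2.50 in healthy mice. The sign of the day 21 difference thus changed with the assay and with that replicate. The limma difference was 1.16 ± 0.79 by assay 1 (adjusted p = 0.744) and -0.31 ± 0.56 by assay 2 (adjusted p = 0.987), and -0.14 by assay 1 without replicate 26. The authors' deposited table gives a fold change of 2.17 for assay 1 and 0.819 for assay 2. At days 7 and 14 the assays lay close together. Assay 2 was -1.36, -1.92 and -1.31 in tumor-bearing mice and -1.05, -0.97 and -1.96 in healthy mice at day 7. At day 14 it ran from -2.48 through -1.79 to -1.37 in 8 tumor-bearing mice and from -3.91 through -2.54 to -1.20 in 7 healthy mice (0.40 ± 0.33, adjusted p = 0.695). By assay 1 the day 14 difference was 0.41 ± 0.45 (adjusted p = 0.761).

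No change of a member between days passed the threshold within a condition. Among all assays the share was 0.175% for day 14 minus day 7, 0% for day 21 minus day 14 and 0.529% for day 21 minus day 7 in tumor-bearing mice, and 0%, 0.346% and 0% in healthy mice. The 5 chemokine assays had estimates below 0 for day 14 minus day 7 in both conditions, also on leaving out each mouse. For Ccl2 in healthy mice the estimate then ran from -1.23 to -0.49. Leaving out 1 mouse at a time keeps healthy replicate 13 or 14, which were low in Ccl2 (-5.22 and -3.08). These ranges thus cannot show the part that the pair has together. Ccr2 had no steady sign, at 0.03 in tumor-bearing mice (-0.063 to 0.11 on leaving out each mouse) and -0.02 in healthy mice (-0.29 to 0.13). The median over the 6 member assays was -0.40 in tumor-bearing and -0.94 in healthy mice, against 0.01 and 0.09 over all assays. Unadjusted p-values under 0.05 went to Ccl6 in tumor-bearing mice (-0.51 ± 0.20, adjusted p = 0.407), where 8.58% of all assays passed, and to Ccl7 assay 2 in healthy mice (-0.95 ± 0.43, adjusted p = 0.365), where 12.9% did. For Ccl8 the day 14 minus day 7 difference was -1.07 ± 0.55 in tumor-bearing mice (adjusted p = 0.593), and the difference in healthy mice was -0.94 ± 0.55 (adjusted p = 0.463). From day 14 to day 21 Ccl6 in healthy mice was 0.66 ± 0.21 higher (unadjusted p = 0.00396, where 15.9% of all assays had a p under 0.05, adjusted p = 0.104). It was 0.79 ± 0.18 higher without healthy day 14 replicate 12 (adjusted p = 0.0452), a mouse at 2.51 where the next healthy value was 1.73.

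The physical panels moved with the day 14 levels of Ccl8. On panels D and G, Ccl8 averaged 0.30 ± 1.26 in tumor-bearing mice and 0.45 ± 0.50 in healthy mice (SD, n = 4 each). On the panels shared by both conditions at day 14 (A, B, E and F) it averaged 1.88 ± 0.56 and 1.57 ± 0.79 in tumor-bearing and healthy mice (n = 4 each). No sample of days 7 or 21 ran on D or G. Without D and G the Ccl8 difference between day 14 and day 7 was -0.37 ± 0.33 in tumor-bearing mice (adjusted p = 0.992) and -0.45 ± 0.33 in healthy mice (adjusted p = 0.632). Ccl6 showed a smaller gap, at 1.58 ± 0.22 on D and G (n = 8) and 1.89 ± 0.35 on the others (n = 7). Ccr2 was likewise lower on D and G, at -0.68 ± 0.38 (n = 8) against -0.36 ± 0.75 (n = 6). Ccl2 and Ccl7 were higher on D and G. Ccl2 averaged -1.11 ± 0.46 (n = 8) there and -2.16 ± 1.54 (n = 7) on the others, which hold healthy replicates 13 and 14. Ccl7 averaged -1.79 ± 0.63 and -2.30 ± 0.68 by assay 1, and -1.87 ± 0.63 and -2.24 ± 0.82 by assay 2. The part of the panel in these levels was not tested further.

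**Figure D3:**
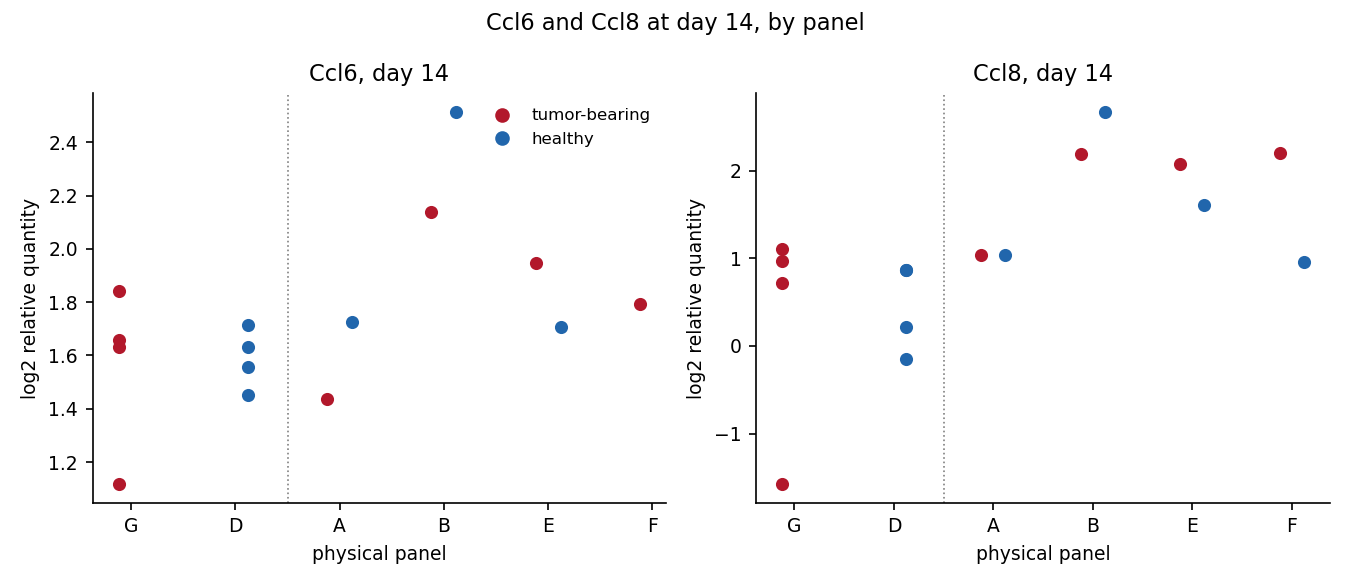
Log2 relative quantity (y axis) of Ccl6 and Ccl8 in the day 14 mice by physical panel (x axis), with red points for tumor-bearing and blue for healthy mice and a dotted line between panels of 1 condition (G and D) and panels of both. Ccl8 averaged 0.37 over the 8 mice of D and G and 1.72 over the 8 mice of the other panels.

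Ccl2 and Ccl7 varied together from mouse to mouse. Correlations were taken over deviations from the group means, for 15 pairs of member assays, with p-values adjusted over the pairs. Ccl2 and Ccl7 assay 2 gave a Pearson r of 0.937 (n = 25, permutation p = 1e-05, the smallest that 100000 resamples can give, adjusted p = 0.00015) and a Spearman rho of 0.851 (permutation p = 1e-05, adjusted p = 0.00015). Leaving out the 2 samples farthest from the Ccl2 median gave 0.877, leaving out panels D and G gave 0.951, and D and G alone gave 0.918 (n = 8). Healthy day 14 replicate 13, the lowest in Ccl2 (-5.22), had no Ccl7 assay 2 value and is in none of these. By assay 1 it was at -2.87, close to healthy replicate 12 (-2.84), whose Ccl2 was -1.82. With assay 1 of Ccl7 the rho was 0.53 (adjusted permutation p = 0.0308) and the r 0.390 (adjusted permutation p = 0.145), and 0.668 without replicate 26 (adjusted permutation p = 0.002). The Ccl7 assays correlated with each other at 0.550 (adjusted permutation p = 0.0467; rho 0.707, adjusted permutation p = 0.00127), and at 0.882 without the 2 farthest samples. Their r no longer passed without panels D and G (0.363, adjusted permutation p = 0.450) or without the 3 samples of few detected assays (0.486, adjusted permutation p = 0.0895). Those settings keep replicate 26, where the Ccl7 assays were 4.03 apart, and without that replicate alone the r was 0.882. Ccl2 and Ccl8 gave a rho of -0.48 (n = 27, adjusted permutation p = 0.0345) with an r of -0.324 (adjusted permutation p = 0.189), which was 0.062 without panels D and G.

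**Figure D4:**
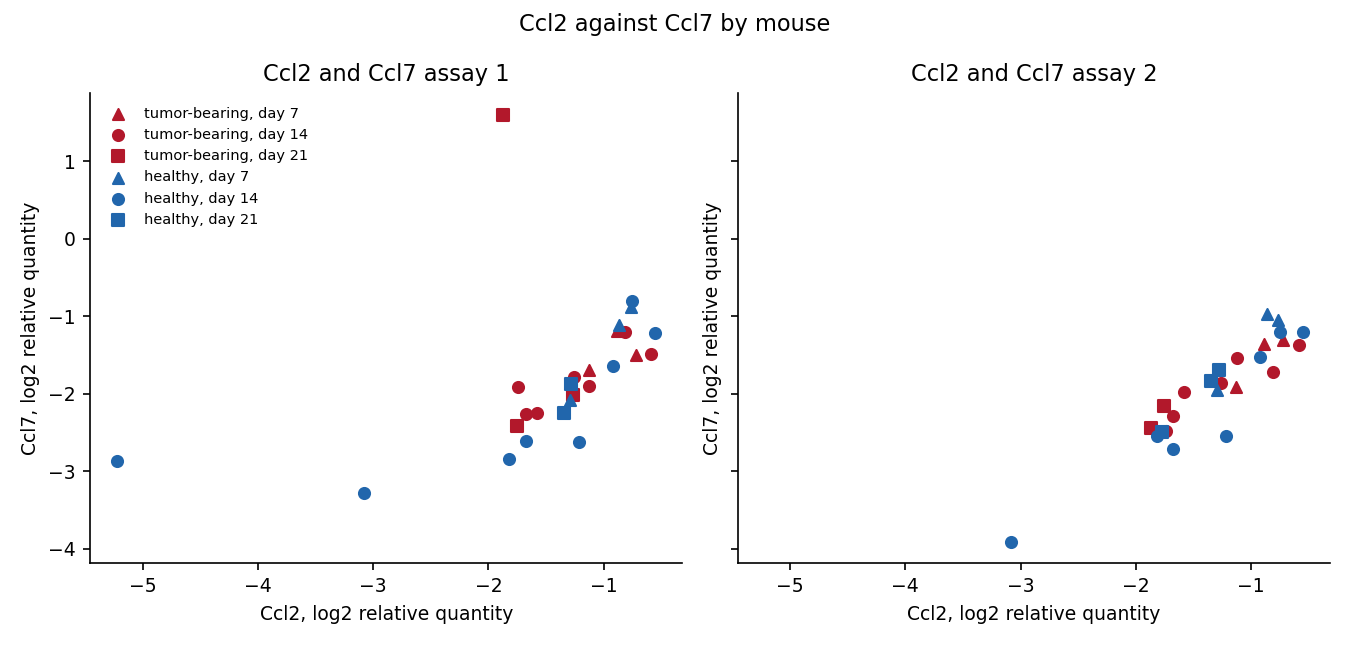
Log2 relative quantity of Ccl7 (y axis, assay 1 left and assay 2 right) against Ccl2 (x axis), 1 point per mouse, coloured by condition and shaped by day. Among mice with both values, those low in Ccl2 were low in Ccl7 assay 2, while in the assay 1 plot tumor-bearing replicate 26 stands alone at 1.60. Healthy day 14 replicate 13, the lowest in Ccl2 (-5.22), has no assay 2 value and appears only in the assay 1 plot, at -2.87.

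Ccl6 and Ccl8 gave an r of 0.394 over all mice (n = 27, permutation p = 0.0459, adjusted p = 0.143) and a rho of 0.49 (adjusted permutation p = 0.0345). The sign differed between sets of panels. The r was 0.811 over panels A, B, C, E and F (n = 19, adjusted permutation p = 7.5e-05) and -0.701 over D and G (n = 8), and 0.254 without the 2 samples farthest from the Ccl6 median. Ccr2 and its ligand Ccl2 gave -0.485 (n = 26, permutation p = 0.0268, adjusted p = 0.134) with a rho of -0.05. The r was 0.192 without the 2 samples farthest from the Ccr2 median and 0.206 (n = 25) without the 3 samples of few detected assays. Of those samples only healthy day 14 replicate 14 has a Ccr2 value. The negative r thus rested on that mouse (Ccr2 0.92, Ccl2 -3.08). Likewise Ccr2 and Ccl7 assay 2 gave -0.411 (adjusted permutation p = 0.143), and 0.260 without the 2 farthest. Over the mice of D and G together Ccr2 and Ccl2 gave 0.684 (n = 8), and over those of the other panels -0.730 (n = 18, adjusted permutation p = 0.0149). Ccr2 and Ccl7 assay 2 gave -0.777 over the other panels (adjusted permutation p = 0.0087). Both of these values include healthy replicate 14, on panel F. No r was computed within a single panel.

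The genes with profiles most like each member, by Pearson r of log2 values over the samples with both, were found among 312 assays with a value in all 28 samples, 311 for Ccl8, which has a value in all of them itself. These are descriptions over 26 to 28 mice that share panels and reference genes. Ccr2 was closest to Alox5 (0.716), the leukotriene-forming lipoxygenase, Chi3l3 (current symbol Chil3; 0.677), a secreted product of mouse macrophages, and Ppia (0.654), cyclophilin A. Ccl2 was closest to the complement receptor C3ar1 (0.891), the scavenger receptor Stab1 (0.822) and the complement component C1qa (0.755), all known from macrophages. Healthy day 14 replicates 13 and 14, with few detected assays, were far below the other mice in Ccl2 (-5.22 and -3.08). None of the r values of this paragraph was recomputed without them. Ccl6 was closest to Ppia (0.748), Ccl24 (0.713), an eosinophil-attracting chemokine, and Cfp (0.658), properdin. Ccl7 assay 1 was closest to Tnfrsf9 (0.802), Vegfc (0.779) and Nono (0.768), and assay 2 to Hmox1 (0.797), heme oxygenase, Pxdn (0.705) and Inhba (0.648). Ccl8 was closest to Bad (0.894), an apoptosis regulator, Cd86 (0.828), a costimulatory ligand, and Ppia (0.808). Ppia is among the housekeeping genes listed for these data. Its assay was the same for Ccl6 and Ccl8, and a different one for Ccr2.

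Of 20 other genes of the CC chemokine network, 14 were on the panel, with 17 assays. None passed between tumor-bearing and healthy mice, and estimates were above 0 in 6 of 17 assays at day 7, 4 at day 14 and 7 at day 21. Their median difference was -0.09, -0.17 and -0.07 at those days, against 0.03, -0.08 and 0.00 over all assays. The smallest p-values were those of Ccr8, the other receptor of mouse Ccl8, at day 7 (-1.54 ± 0.91, adjusted p = 0.997) with Csf2 (-0.63 ± 0.53, adjusted p = 0.997), a growth factor of myeloid cells. At day 14 they were those of Ccbp2 (current symbol Ackr2), a decoy receptor that takes up CC chemokines (-0.56 ± 0.22, adjusted p = 0.277), and Ccr3, the eosinophil chemokine receptor (-0.53 ± 0.22, adjusted p = 0.298). At day 21 they were those of Ccbp2 (0.67 ± 0.34, adjusted p = 0.638) and Cx3cr1, the fractalkine receptor of monocytes (0.39 ± 0.20, adjusted p = 0.669).

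Among 21 genes that induce or transmit the induction of monocyte chemokines, 19 were on the panel, and none passed. Assays with an estimate above 0 were 11 of 23 at day 7, 9 of 24 at day 14 and 9 of 23 at day 21. The smallest p-values were those of Ifng, the macrophage-activating interferon, at day 7 (-3.25 ± 0.96, adjusted p = 0.730), Tlr4, the endotoxin receptor, at day 14 (0.24 ± 0.11, adjusted p = 0.429) and Stat3 at day 21 (0.81 ± 0.52, adjusted p = 0.728).

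Markers of the cell types an implant could hold were set beside the members. Of 14 monocyte and macrophage markers, 5 were on the panel, and Cd14, Cx3cr1, Cd163 and Mrc1 had a value in all 28 samples and Itgam in 26. None passed between conditions, and at day 21 their summed relative quantity ran from 2.33 to 5.97 in tumor-bearing mice and from 3.68 to 4.43 in healthy mice. Such a sum, here and for neutrophils below, adds nothing for a marker without a value in that mouse. Mice that lack different markers are thus not fully comparable, and abundant markers weigh most. Of 12 neutrophil markers, 9 were on the panel with 10 assays, each with a value in 16 to 28 samples. Neutrophil assays passed, all higher in tumor-bearing mice, in 9 of 9 tested at day 14 and in 5 of 10 at day 21. At day 14 their summed quantity ran from 1.21 to 9.92 in tumor-bearing mice and from 0.43 to 2.17 in healthy mice. At day 21 it ran from 8.05 to 14.8 in tumor-bearing mice and from 3.00 to 4.79 in healthy mice. This moved with Ccr2 at day 21, and its part in the Ccr2 difference was not tested. No T cell assay of 5 passed, nor any of 6 eosinophil, basophil and mast cell assays, nor the only fibroblast marker, Fn1. Of 3 dendritic cell assays, Ccr7 was lower in tumor-bearing mice at day 21 (-1.18 ± 0.30, adjusted p = 0.0437) and for the mean of the 3 days. The listed B cell markers were not measured here.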

How the data were processed

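Per the labels' protocols, RNA from frozen scaffolds was copied into cDNA and measured by RT-qPCR on an OpenArray inflammation panel, in 28 samples of 1 mouse each. Per the file headers, the authors deposited a raw quantification cycle (Cq), a score that falls with more template, and a normalized table of relative quantities, which are linear ratios. The deposited ratios equal 2 to the power of the mean Cq of 5 reference genes minus the assay's Cq, in 28 of 28 samples within 0.001 cycles. These 5 are among 16 assays that the table calls references. The authors' deposited table of fold changes (ratios of tumor-bearing over healthy, with no error) was only quoted. The Cq caller is not given in the sources used here.

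Log2 of the deposited ratios was tested with limma 3.58.1 in R 4.3.3, with 1 mean per group over all samples and the panel as a random block (duplicateCorrelation, statmod 1.5.0; correlation 0.0535). Samples with missing values entered each assay's fit through the values present. An assay was tested with a value in at least 50% of the samples of a group and at least 2 values in each group compared. Benjamini-Hochberg adjustment ran over all assays of a comparison, with a threshold of 0.05. Log2 differences are given ± SE, and intervals are 95%. Correlations used 100000 resamples, two-sided. Exact permutation tests were two-sided. The fit was tested on simulated data. Every member assay was named. Of the marker and pathway lists, the genes past the threshold or with the smallest p were named. As genes most like a member, the 3 with the highest r were named. The members and lists were chosen with earlier results of these data known. Alternatives were the panel term, panels D and G left out, 2 other normalizations, missing reactions set to the largest Cq, complete assays only, only the groups compared, each replicate left out, and, added after seeing the data, 3 samples of few detected assays left out. The number of mice limits precision.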

Additional observations from a re-analysis of the deposited data

Results flagged for a closer look

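Of 12 sets of day 14 values (6 member assays in 2 conditions), 3 held a value apart from the rest by Dixon's test at the 95% level, and chance marks about 1 in 20 such sets. Ccr2 in healthy replicate 14, on panel F, was at 0.92, above the other 6 healthy mice, of which the nearest was at -0.56. Ccl6 in healthy replicate 12, on panel B, was at 2.51, with the nearest other value at 1.73. Ccl8 in tumor-bearing replicate 15, on panel G, was at -1.58, with the nearest other value at 0.71.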

How the results depend on the processing

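No analysis paired by mouse was possible, since each mouse gave 1 sample and no replicate number is shared between groups. Mice of both conditions shared panels, and the panel was taken as a block. Pairs of the same panel and day were described above without a test. Of 1615 values recomputed over all member assays and comparisons, 2 were past the threshold, both on leaving out 1 replicate, and 88 changed sign; the cause was not tested. When a reaction without a Cq took the panel's largest Cq, tumor-bearing minus healthy was -2.18 for Ccl2 and 3.37 for Ccl6 at day 14, and -0.76 and 1.01 for the mean of the 3 days. Without the 3 day 14 samples of few detected assays, Ccl2 was -0.10 at day 14 and -0.068 for the mean. Ccr2 at day 14 was -0.000877 with the panel as a fixed block and without panels D and G. The mean for Ccl7 assay 2 was 0.050 with the panel as a fixed block, 0.077 without panels D and G and 0.021 with Cq centred on sample medians, a setting that gave 0.030 for Ccl6 at day 14. Ccr2 for day 14 minus day 7 was -2.50, -0.085 and -0.030 in tumor-bearing mice with missing reactions at the largest Cq, a fixed block and median centring, and 0.070 and 0.25 in healthy mice with a fixed block and without panels D and G. Relative to more housekeeping genes Ccl6 at day 7 was -0.00397.

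Leaving out each replicate in turn, the number of member assays past the threshold ran from 0 to 1 for day 21 minus day 14 in healthy mice and for the mean of tumor-bearing minus healthy. These were Ccl6 (0.47 to 0.79) without healthy day 14 replicate 12 and Ccr2 (0.33 to 0.47) without healthy day 14 replicate 14. Ranges of tumor-bearing minus healthy that crossed 0 were, at day 7, -0.091 to 0.17 for Ccl2, -0.070 to 0.12 for Ccl6 and -0.44 to 0.10 for Ccl7 assay 1. At day 14 they were -0.13 to 0.066 for Ccl6 and -0.069 to 0.43 for Ccl8. At day 21 they were -0.35 to 0.0045 for Ccl2 and -0.14 to 1.86 for Ccl7 assay 1, and for the mean -0.15 to 0.027 for Ccl7 assay 2. Ccr2 for day 14 minus day 7 ran from -0.063 to 0.11 in tumor-bearing and from -0.29 to 0.13 in healthy mice.

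Among correlations, leaving out panels D and G gave 0.811 for Ccl6 and Ccl8 (call gained), 0.363 for the Ccl7 assays (call lost), 0.062 for Ccl2 and Ccl8, -0.730 for Ccr2 and Ccl2 (call gained) and -0.777 for Ccr2 and Ccl7 assay 2 (call gained). Without the 3 samples of few detected assays these last pairs gave 0.206 and 0.216, and the Ccl7 assays 0.486 (call lost). For the Ccr2 pairs that setting left out only healthy day 14 replicate 14, since the others have no Ccr2 value. Without the 2 farthest samples the Ccr2 pairs gave 0.192 and 0.260. Without replicate 26, Ccl2 and Ccl7 assay 1 gave 0.668 and the Ccl7 assays 0.882. Of the whole panel, the assays past the threshold between conditions numbered 0 under every alternative at day 7, 3 to 15 at day 14, 0 to 9 at day 21 and 4 to 15 for the mean, against 0, 14, 7 and 14 in the report. The low ends came from setting missing reactions to the largest Cq or from complete assays. Between days they ran from 0 to 18 for day 21 minus day 14 in healthy mice (18 without the 3 samples of few detected assays, 2 in the report), 0 to 13 for day 21 minus day 7 in healthy mice, 0 to 9 for day 21 minus day 14 in tumor-bearing mice and 0 to 4 in the other within-condition comparisons.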
